A study of Rattus norvegicus with 16 samples.

Results

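Runx1 encodes a transcription factor of the RUNX family and was represented by 1 probe, the only one whose platform annotation names Runx1 (older names Aml1 and Cbfa2), among 1096 genes with a tested probe. The samples were whole EDL (extensor digitorum longus), a shin muscle made mostly of fast fibres, taken from 6-month-old rats of the Brown-Norway strain. Of 16 nylon membrane arrays, 8 carried RNA from control EDL and 8 carried RNA from EDL denervated for 2 months, each array taken as 1 rat. Rats were numbered 1 to 8 in each group, and the labels do not say how the muscle was denervated or whether the control muscle came from unoperated rats. They also do not name hybridisation batches, and p-values measure the spread between these arrays.

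RUNX proteins bind DNA through a conserved Runt domain, together with a shared partner that does not bind DNA itself, and can activate or repress genes. Runx1 is best known for its role in blood formation. In skeletal muscle its transcript is low while the nerve is present and is known to be induced when the nerve is lost, and mice that lack Runx1 in muscle are known to undergo more severe wasting after denervation.

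The RefSeq promoter table (rat build GRCr8) held 1 start for Runx1, on the minus strand of chromosome 11 and within the span of the gene (45325778 to 45560300). On this strand the gene begins at 45560300, so the start is internal. Bases before that end of the gene were not examined, and the start used in muscle was not measured. The 250 bases before the internal start are shown because Runx1 is the gene whose level the data describe. Capitals mark the 1 match to the E-box CANNTG, the type of motif that myogenic factors such as myogenin recognise, searched on both strands, where CAGCTG is a more specific form that CANNTG also counts.

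Runx1 promoter, chr11:45421326-45421575, minus strand: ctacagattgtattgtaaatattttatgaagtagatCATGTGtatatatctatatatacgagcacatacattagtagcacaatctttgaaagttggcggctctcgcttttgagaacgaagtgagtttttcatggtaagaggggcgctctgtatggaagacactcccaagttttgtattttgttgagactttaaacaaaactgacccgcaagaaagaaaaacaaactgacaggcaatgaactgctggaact

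The match, CATGTG, began 214 bases before the start. In the same 250-base window 65.5% of 33469 rat promoters held CANNTG, so a match is common. The E-box CAGCTG and the RUNX letters TGTGGT were not in this window of Runx1, and 12% and 14.5% of all promoters held them. Of 51 promoters matched to genes that were called higher in denervated muscle, 60.8% held CANNTG, 5.88% CAGCTG and 15.7% TGTGGT, beside 59%, 12.7% and 11% of 943 promoters of genes on the array. These are counts of letters, and no binding was measured.

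Runx1 was low in control muscle and high on every denervated array. The values are on a logarithmic scale whose base is not given in the sources used here, so differences are stated in log units and no folds are given. In control rats 1 to 8 the Runx1 value was 5.74, 6.75, 6.69, 6.03, 8.61, 6.24, 5.74 and 7.91. In denervated rats 1 to 8 it was 10.20, 10.52, 9.97, 10.77, 10.17, 10.82, 9.81 and 9.79. The groups did not overlap, and the lowest denervated value, that of rat 8, lay 1.18 log units above the highest control value, that of rat 5.

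The control mean was 6.71 ± 1.04 and the denervated mean 10.26 ± 0.41 log units (SD, 8 arrays each), a difference of 3.54 (SE 0.41, 95% interval 2.71 to 4.37). In limma, with Benjamini-Hochberg adjustment over 1176 probes, the adjusted p was 6.06e-09. The exact two-sided permutation test over the 12870 ways to choose 8 of 16 arrays gave the smallest p it can give, 0.000155, and 0.0122 after adjustment over all probes. The gene was chosen with this result known, so these values describe the fit and are no independent support. In RNA from whole muscle, more cells that express Runx1 and more Runx1 RNA per cell cannot be told apart.

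**Figure D1:**
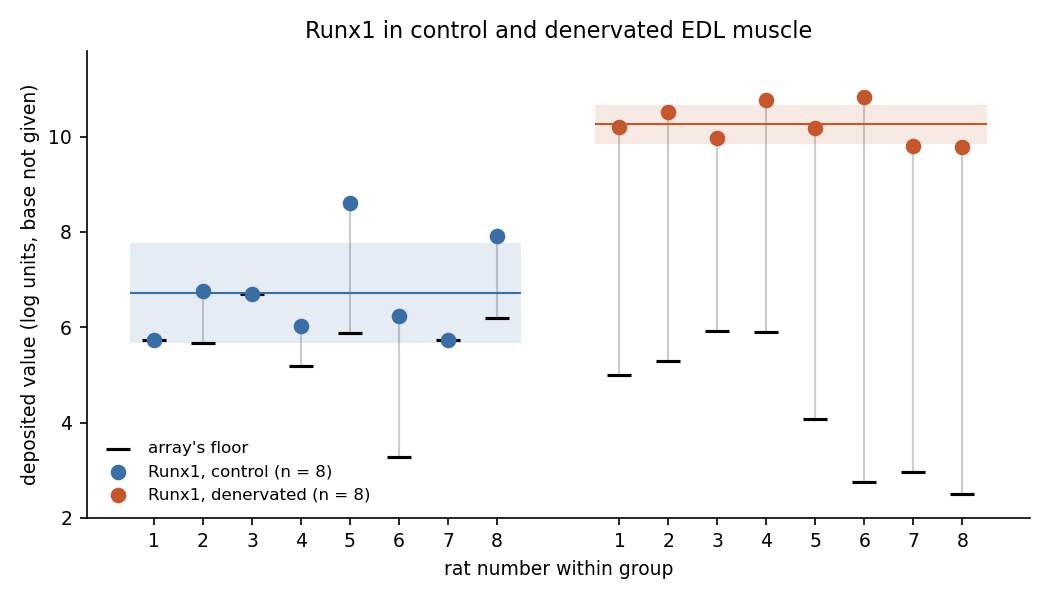
Runx1 value (log units, base not given) on each array, by rat number, with control arrays in blue on the left and denervated arrays in orange on the right. Black ticks are each array's floor, lines and bands are group mean ± SD (n = 8), and the control values of rats 1, 3 and 7 sit on their floors while every denervated value lies at least 4.04 above its floor.

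On every array a group of 22 to 206 probes shared its lowest value, termed here the floor of that array, and a value there gives only an upper bound. Runx1 was at the floor on 3 control arrays, those of rats 1, 3 and 7, and on no denervated array. The other control values stood 0.84 to 2.97 above their floors and the denervated values 4.04 to 8.08 above theirs. Floors ranged from 2.51 to 6.69 over the arrays, and that of control rat 3 was the highest. With all values raised to that highest floor, the Runx1 control mean was 7.09 ± 0.75 and the difference 3.17 (95% interval 2.44 to 3.90, limma adjusted p = 4.98e-08).

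The array of control rat 6 had lower values throughout, with a median of 6.98 where the other 15 medians lay between 7.97 and 8.60. Its Runx1 value of 6.24 was inside the range of the other controls, and without it the Runx1 difference was 3.47. After each array was centred on its median, Runx1 relative to the median ran from -2.77 to 0.22 in control muscle and from 1.21 to 2.80 in denervated muscle. The groups then stood 0.99 apart and the difference was 3.33. Quantile normalisation, which gives every array the same distribution, left a gap of 1.11 and a difference of 3.29 (limma adjusted p = 7.66e-06).

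**Figure D2:**
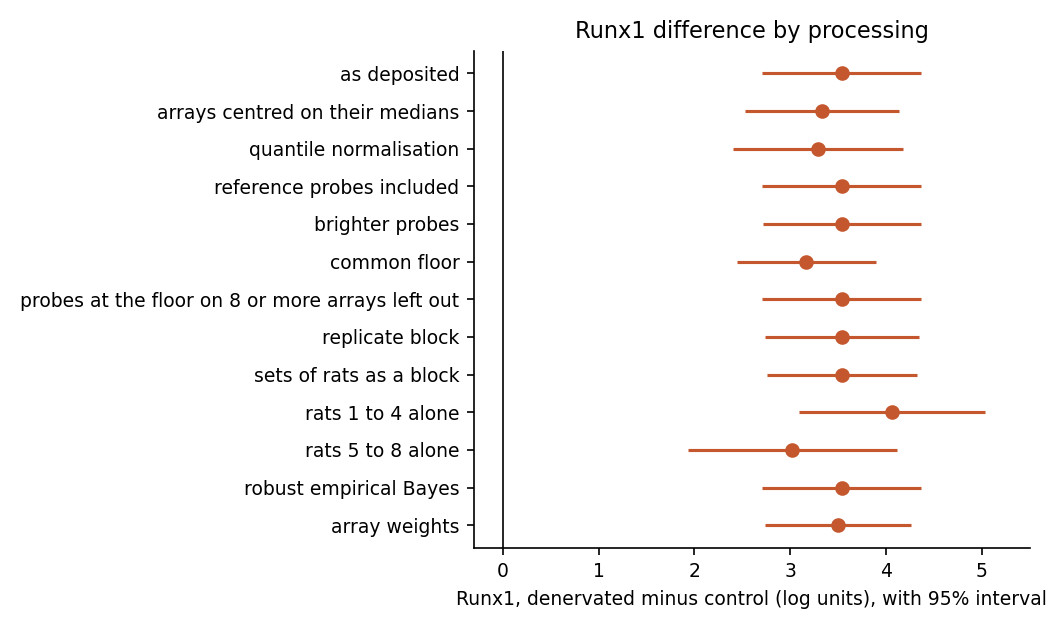
Difference of Runx1 between denervated and control muscle (log units) with its 95% interval from limma, under the values as deposited and 12 other ways of processing them. Estimates lie between 3.02 in rats 5 to 8 alone and 4.06 in rats 1 to 4 alone, and every interval lies above 0.

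Runx1 had the third largest moderated t statistic of the 1176 probes and rank 4 by the size of its difference. Larger t statistics were those of Tnnt2, the cardiac and embryonic troponin T (5.34), and Cox8a, a subunit of cytochrome c oxidase (4.84), where each value in brackets is the difference in log units. Next in order after Runx1 came the kallikrein-type protease Klk1c2 (3.43), the calcium-binding protein S100a4 (2.88), the elongation factor Eef1a1 (2.69), the embryonic myosin heavy chain Myh3 (3.68) and the membrane glycoprotein Emb (2.97). By limma 74 of 1176 probes were called (6.29%), 64 of them higher (5.44%) and 10 lower (0.85%). With arrays centred the counts were 35 higher (2.98%) and 15 lower (1.28%), and after quantile normalisation 35 higher (2.98%) and 27 lower (2.3%). Runx1 had rank 4 by the size of its difference under both, and ranks 4 and 9 by t.

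Groups did not overlap in 15 of 1176 probes (1.28%), of which 14 (1.19%) were higher in denervated muscle. Among these the gap of Runx1 was second only to that of Tnnt2, at 3.08, and was followed by that of the neuronal cell adhesion molecule Nrcam, at 1.10. Control values of Tnnt2 were at the floor on 4 of 8 arrays and those of Cox8a on 6, so the true order of Tnnt2, Cox8a, Myh3 and Runx1 by difference is not settled by these data. Myh3 was at the floor on 7 control arrays and Runx1 on 3.

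**Figure D3:**
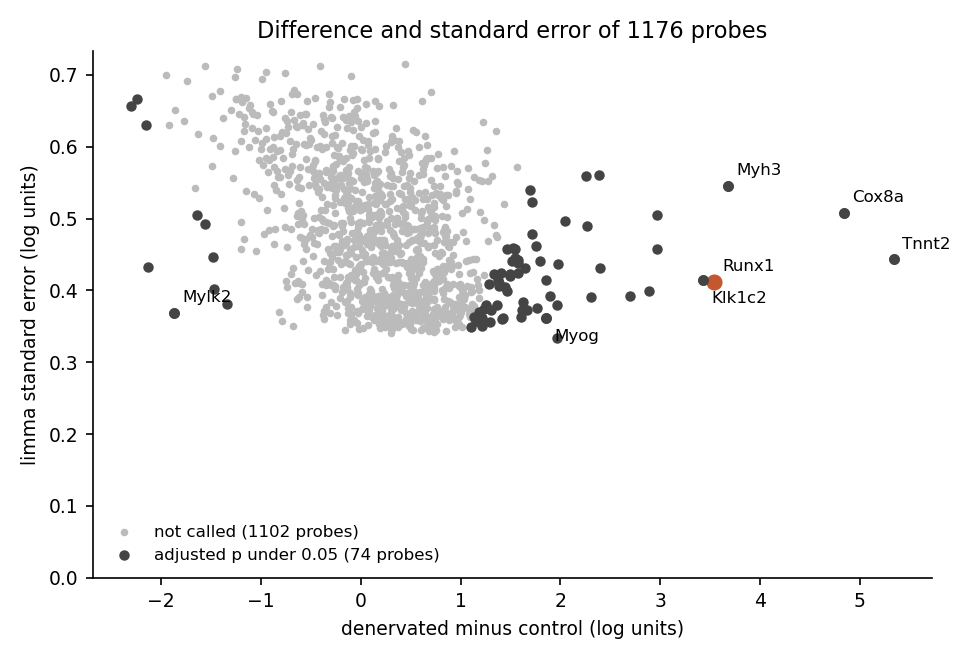
Difference between denervated and control muscle (log units, horizontal) and its limma standard error (log units, vertical) for 1176 probes, with the 74 probes at an adjusted p under 0.05 in dark grey and Runx1 in orange. Runx1, at 3.54 with a standard error of 0.41, lies to the right of all but Tnnt2, Cox8a and Myh3.

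The Runx1 values differed less between denervated rats than between control rats. The SD was 0.41 in denervated and 1.04 in control muscle, a ratio of 2.54, while the median SD over all probes was 0.77 in denervated and 0.99 in control muscle. Ordered from the smallest SD, Runx1 was in place 164 of 1176 in denervated muscle and in place 681 in control muscle. Arrays at the floor bound the control spread, and the difference in spread was not tested.

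Among controls, rats 5 and 8 carried the highest Runx1 values, 8.61 and 7.91. Myogenin (Myog), the myogenic transcription factor, did not stand high on these 2 arrays, with 8.77 and 9.02 against a control median of 9.16. Neither did Kcnn3, a calcium-activated potassium channel, at 8.48 and 8.65 against 9.29. S100b, a calcium-binding protein, was above its control median of 7.25 on both, at 8.41 and 7.61, and Cebpd, a bZIP transcription factor, was above its median of 6.86 on both, at 7.06 and 9. Control rats 3 and 4 had more Cebpd than rat 5, at 7.53 and 7.21, and rat 4 had more S100b than rat 8, at 7.92.

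Rats 1 to 4 and rats 5 to 8 were set apart because an earlier account of these data saw them differ, and the division is no label. With arrays centred, deviations from the group means were correlated between control and denervated arrays over all probes. The median correlation was 0.12 over the 32 pairs of the same set and -0.11 over the 32 pairs of different sets. The division came from these same arrays, so these correlations describe it and are no independent support. In rats 1 to 4 Runx1 rose from 6.30 ± 0.50 to 10.36 ± 0.36 (SD, n = 4 per group). In rats 5 to 8 it rose from 7.13 ± 1.35 to 10.15 ± 0.48. The differences were 4.06 (limma adjusted p = 2.60e-06) and 3.02 (limma adjusted p = 4.02e-05). The difference between them, -1.04 (SE 0.75), did not pass a limma interaction test (adjusted p = 0.534). That test called 0 of 1176 probes, with 159 at an unadjusted p under 0.05 and a lowest adjusted p of 0.171, and no other tool was run on it.

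The other genes of the muscle's response to nerve loss were read from a list of 38 textbook denervation and junction genes, of which 13 had a tested probe. Of these 8 rose and none fell, where 5.44% of all probes were called higher, and the median difference was 1.33 against 0.22 over all probes. The list was drawn up with earlier results of these data known, so its count is a description. It was 7 with arrays centred, 6 after quantile normalisation and 7 by exact permutation, and 5 in rats 1 to 4 alone. Over all probes the count of 74 called was 50, 62, 67 and 30 in the same order.

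Among the contractile members, Tnnt2 had a control range of 3.27 to 7.30 with a median of 6.57 and a denervated range of 10.38 to 13.06 with a median of 11.29. Myh3 ran from 3.27 to 6.69 in control muscle (median 5.81) and from 7.18 to 10.74 in denervated muscle (median 9.59). Neither gene overlapped between groups, as was the case for Runx1. The lowest control value of both, 3.27, was that of rat 6 at its floor, and without this array Tnnt2 differed by 4.93 and Myh3 by 3.35.

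Of the myogenic transcription factors, Myog ran from 8.16 to 10.42 in control (median 9.16) and from 10.13 to 11.98 in denervated muscle (median 11.20). It rose by 1.85 (SE 0.36, limma adjusted p = 3.79e-04). Myf6, the myogenic factor also called MRF4, rose by 1.29 (limma adjusted p = 0.0203), with a difference of 0.57 that did not pass in rats 1 to 4 alone (limma adjusted p = 0.585) and 2.02 for rats 5 to 8 alone (limma adjusted p = 1.13e-04). The interaction of Myf6 did not pass (limma adjusted p = 0.205). Myod1 rose by 1.33 (limma adjusted p = 0.0450). Control and denervated values overlapped for all 3, unlike those of Runx1. After quantile normalisation neither Myf6 (limma adjusted p = 0.0594) nor Myod1 (limma adjusted p = 0.182) passed, and Myod1 did not pass with arrays centred (limma adjusted p = 0.157). Leaving out 1 array ended the call of Myf6 for 2 of 16 arrays, with the highest adjusted p in limma, 0.0576, without denervated rat 6. For Myod1 it ended the call for 9 of 16 arrays, with the highest, 0.140, without control rat 8.

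Among membrane proteins of the list, Emb ran from 4.57 to 10.48 in control muscle (median 8.36) and from 10.43 to 11.96 in denervated muscle (median 10.97). Kcnn3, which underlies the after-hyperpolarisation of denervated fibres, ran from 8.24 to 10.48 (median 9.29) and from 10.09 to 11.62 (median 11.05). The cell adhesion molecule Ncam1 ran from 7.66 to 9.09 (median 8.40) and from 8.53 to 11.88 (median 10.30). They rose by 2.97, 1.61 and 1.96, and each overlapped between groups. The Ncam1 difference was 1.01 for rats 1 to 4, which did not pass (limma adjusted p = 0.298), against 2.92 for rats 5 to 8 (limma adjusted p = 6.96e-07). Runx1 differed by more in rats 1 to 4. The interaction of Ncam1 was 1.91 (limma adjusted p = 0.171).

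The 5 members that did not pass were the junction kinase Musk at 0.73 (limma adjusted p = 0.310), the dystrophin relative Utrn at 0.57, S100b at 0.41, the intermediate filament Nes at 0.38 and the growth factor Nrg1 at 0.18. The low array of control rat 6 enlarged these differences, and without it Musk stood at 0.45, Utrn at 0.42, S100b at 0.03, Nes at 0.20 and Nrg1 at 0.01. Utrn stood at 0.36 without denervated rat 2.

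**Figure D4:**
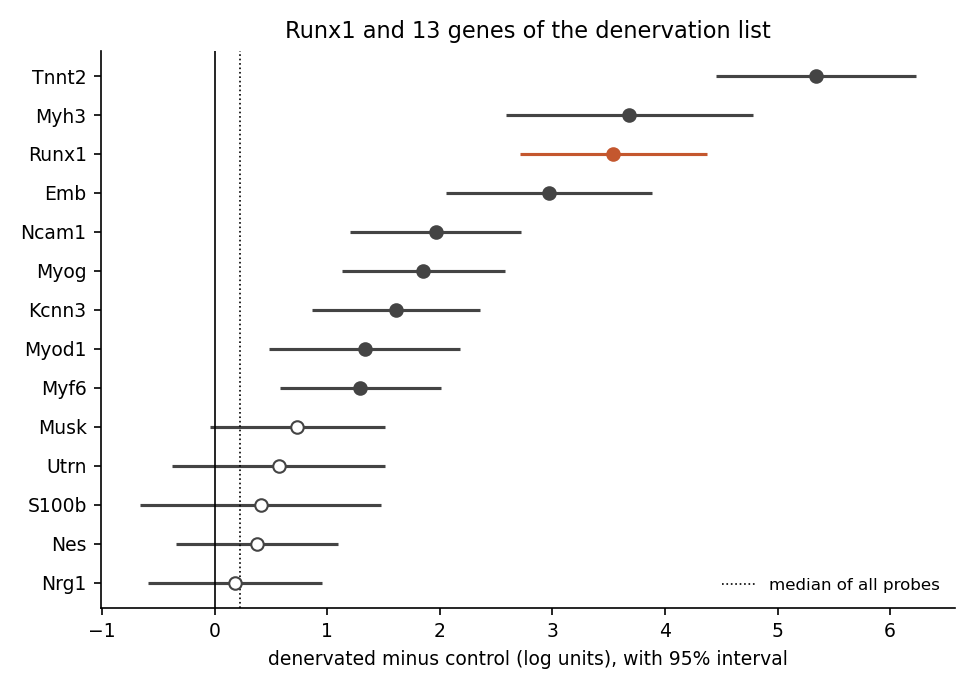
Difference between denervated and control muscle (log units) with its 95% interval from limma for Runx1 (orange) and the 13 measured genes of the denervation list, filled where the adjusted p was under 0.05. Runx1 lies below Tnnt2 and Myh3 and above the other 11, and the dotted line marks the median of all probes at 0.22.

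Of 52 listed relatives, DNA-binding partners and cofactors of Runx1 only Cebpd had a tested probe. It ran from 5.74 to 9 in control muscle (median 6.86) and from 3.71 to 8.32 in denervated muscle (median 5.73). The groups overlapped widely, and the difference of -1.22 did not pass (SE 0.65, limma adjusted p = 0.315). Its difference was -0.06 among rats 1 to 4 but -2.37 among rats 5 to 8. Leaving out 1 array moved it between -1.58 and -0.92. Runx2, Runx3 and the shared partner Cbfb were not analysed here, and whether the Runx1 probe also binds their transcripts was not tested.

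Among 73 transcription factors of a broad list, Runx1 had the largest moderated t. Of the other 72, 4 rose and none fell, which is 5.56% beside 5.44% of all probes. They were the 3 myogenic factors above and Neurod2, a basic helix-loop-helix factor known from neurons. Neurod2 ran from 4.48 to 8.78 in control muscle (median 7.64) and from 8.12 to 9.85 in denervated muscle (median 9.39). Its lowest control value was that of rat 6, and it rose by 1.76 (limma adjusted p = 0.0133), or 1.35 without that array. The count of 4 fell to 2 without control rat 5 and without denervated rat 6, and to 1 in rats 1 to 4 alone. Over all probes the count of 74 fell to 49, 46 and 30 in the same order. After quantile normalisation Myog and Neurod2 rose and Dlx5 and Maf, named after their values were seen, passed as lower.

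The muscle label was checked against contractile and calcium-handling genes, of which 16 had a tested probe. The mean of these 16 values on an array lay between 7.17 and 9.31 in control and between 9.38 and 9.86 in denervated muscle. That of all probes lay between 6.63 and 8.27 and between 8.20 and 8.31. The 16 include Tnnt2 and Myh3, which were at the floor on 4 and 7 control arrays. Beside Tnnt2 and Myh3, Casq2, the calsequestrin of cardiac and slow muscle, rose by 1.77 (limma adjusted p = 0.00126), and Mylk2, a kinase of the myosin light chain, fell by 1.87 (limma adjusted p = 4.18e-04). Without control rat 6 Mylk2 differed by -2.09. Casq2 did not pass in rats 1 to 4 alone (1.24, limma adjusted p = 0.222). Mylk2 did not pass in rats 5 to 8 alone (-1.07, limma adjusted p = 0.084). Of 11 ion channels 1 rose, Kcnn3, which is 9.09% beside 5.44% of all probes. After quantile normalisation the calcium channel Cacna1s also passed, as lower, at -0.79 (limma adjusted p = 0.0023), against -0.03 as deposited (limma adjusted p = 0.976).

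Runx1 is also made by blood cells and by other cells of muscle, so the marker lists of those cells stand beside its rise. In leukocyte markers, 11 of 59 listed genes were measured, and 0 passed in limma, where 6.29% of all probes were called. With 11 genes a count of 0 is not read as an absence. At an unadjusted limma p under 0.05 there were 4, beside 211 of all 1176 probes, and by exact permutation 1, beside 67. With the sets of rats as a block 4 passed, beside 131 of all probes, and in rats 5 to 8 alone 3, beside 139. The median difference was 0.64 with 7 of 11 positive, beside 0.22 and 749 of 1176 over all probes. The mean of the 11 values ran from 7.18 to 8.86 over control arrays and from 7.95 to 8.73 over denervated arrays. The mean over all probes ran from 6.63 to 8.27 and from 8.20 to 8.31. Cxcl1, a neutrophil chemokine, came nearest to the threshold, with a difference of -1.92 (limma adjusted p = 0.0550), and sat on the floor for 4 control arrays and 7 denervated ones. The natural killer cell receptor Klrd1 stood at 1.09 (limma adjusted p = 0.0669), the lymphocyte surface protein Cd48 at 1.24 (limma adjusted p = 0.0688) and the macrophage complement component C1qb at 0.95 (limma adjusted p = 0.138). Without control rat 4 the count of leukocyte markers called was 3, without control rat 2 or denervated rat 3 it was 2, and without denervated rat 4 it was 1. Over all probes the counts without these arrays, in the same order, were 98, 91, 75 and 51. The pan-leukocyte gene Ptprc was not analysed here, and the part of leukocytes in the Runx1 difference was not tested.

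Of 7 measured fibroblast and matrix genes 4 rose, S100a4 by 2.88, the proteoglycans Bgn by 2.30 and Dcn by 1.40, and the macrophage elastase Mmp12 by 1.16. In the matrix, satellite, nerve and endothelial and fat lists the shares that rose were 57.1%, 16.7%, 10% and 40%, beside 5.44% of all probes. The matrix count was 6 in rats 5 to 8 alone and 2 in rats 1 to 4 alone, beside 139 and 30 of all probes. With arrays centred and after quantile normalisation it was 2, beside 50 and 62 of all probes. It was also 2 without any 1 of control rats 5, 6 and 7 and denervated rats 1, 2, 4, 6 and 8. Without any 1 of these arrays 43 to 62 of all probes were called. The mean of the 7 matrix values ran from 7.83 to 10.40 over control and from 10.20 to 11.30 over denervated arrays. Over all probes the mean ran from 6.63 to 8.27 and from 8.20 to 8.31. Of 6 satellite cell and proliferation genes Smc3, a cohesin subunit, rose by 2.40. Of 10 nerve and Schwann cell genes the neurofilament Nefm rose by 1.38, but not with arrays centred (limma adjusted p = 0.126) or without any 1 of 7 of the 16 arrays, with the highest limma adjusted p, 0.121, without denervated rat 1. Its difference was 2.61 for rats 1 to 4 against 0.14 for rats 5 to 8. The endothelial, smooth muscle and fat cell list had 5 measured genes, Scd, Scd2, Tagln, Myh11 and Acly. None of its endothelial genes was among them. The desaturases Scd and Scd2 rose by 2.97 and 1.26, and Scd was at the floor on 5 control arrays. Scd2 did not pass without any 1 of 7 of the 16 arrays (highest limma adjusted p = 0.0987, without denervated rat 6). List means ran from 6.69 to 8.03 in control and 7.65 to 8.84 in denervated muscle for satellite and proliferation genes, from 5.27 to 7.81 and 6.75 to 8.07 for nerve genes, and from 5.58 to 8.10 and 7.81 to 8.97 for the last. No measured marker of the leukocyte, matrix, satellite, nerve or endothelial and fat lists was at the floor on all 16 arrays. The part of these cell types in the Runx1 difference was not tested.

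Whether Runx1 varied together with other genes from rat to rat was described after each array was centred on its median and group means were removed. In the family of 13 genes at the floor on at most 4 arrays (12 of the denervation list and Cebpd), no permutation test over the 16 arrays, shuffled within groups, passed, with Benjamini-Hochberg adjusted p from 0.932 for Pearson's r and 0.931 for Spearman's rho upward. The highest was Cebpd, with r = 0.36 and rho = 0.30 (permutation p = 0.105 and 0.202), and r = 0.36 without control rats 5 and 7, the arrays whose Runx1 lay farthest from the median.

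**Figure D5:**
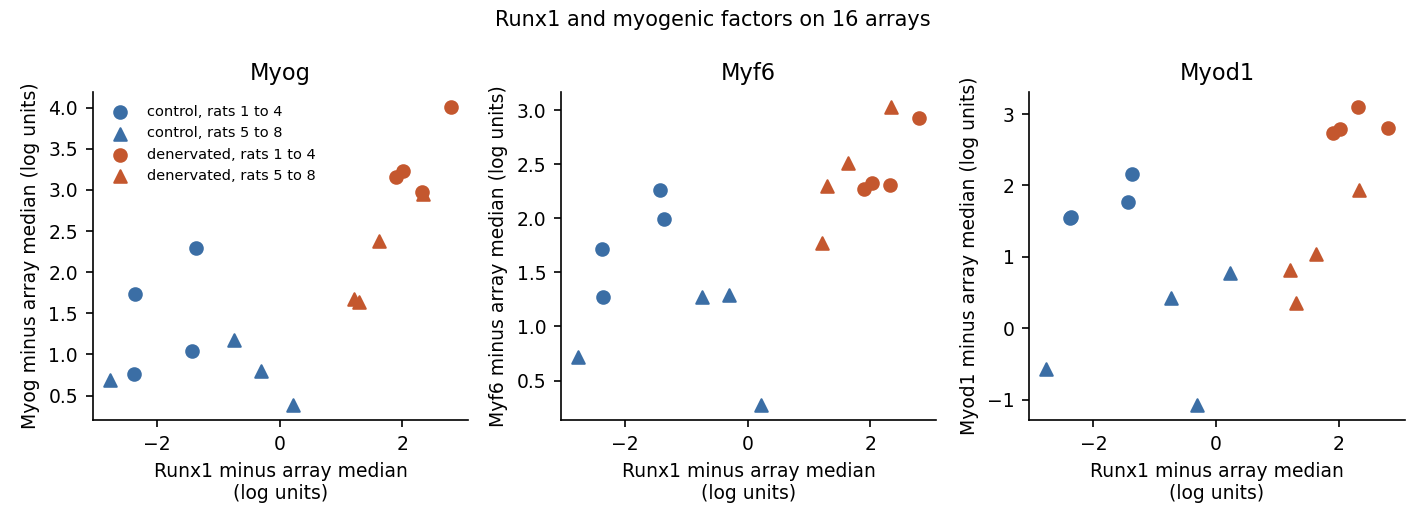
Runx1 (horizontal) against Myog, Myf6 and Myod1 (vertical) on 16 arrays, each as its value minus the array's median (log units), with control arrays in blue, denervated arrays in orange, circles for rats 1 to 4 and triangles for rats 5 to 8. In the denervated arrays Runx1 and Myog run together with r = 0.93, while over the control arrays r was -0.24.

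In the 8 denervated arrays alone, where no Runx1 value was at a floor, Runx1 ran with Myog at r = 0.93 and rho = 0.76. The exact test over the 40320 pairings gave p = 0.00129 for r (0.0168 adjusted over the 13 genes) and p = 0.0368 for rho (0.0956 adjusted). Without denervated rats 4 and 7, farthest from the median of Runx1, r was 0.82. It was 0.82 without centring and 0.57 after quantile normalisation, and 0.88 without centring when the mean of each set of 4 rats was removed. Denervated rat 4 had the highest Myog value, 11.98, with Runx1 at 10.77, and rats 7 and 8 had the lowest of both genes, at 10.28 and 10.13 for Myog and 9.81 and 9.79 for Runx1.

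Other list genes on the denervated arrays had r = 0.81 for Emb, 0.81 for Myod1, 0.80 for Kcnn3 and 0.76 for Myf6, none of which passed by exact permutation after adjustment (adjusted p = 0.0715 for each). The other 8 genes ran from 0.16 for Nes to 0.64 for Tnnt2, with Cebpd at 0.27, Ncam1 at 0.28, Musk at 0.30 and Nrg1 at 0.38. For Emb, Myod1, Kcnn3 and Myf6 in that order, r was 0.58, 0.61, 0.55 and 0.62 without centring. Without denervated rats 4 and 7 it was 0.545, 0.80, 0.615 and 0.435. With set means removed and without centring they were 0.68, 0.74, 0.84 and 0.90. After quantile normalisation they were -0.01, 0.28, -0.11 and 0.44. These values thus differed with the scaling of the arrays. Over 995 probes the median r with Runx1 on the centred denervated arrays was 0.24, and it was 0.03 without centring and 0.02 after quantile normalisation. With centring the quartiles were -0.17 and 0.58, and 236 of the 995 probes had r above 0.6. An r above 0.6 was thus not particular to the list genes. The array median itself had r = -0.38 with Runx1 and -0.75 with Myog on those arrays, and its part in the centred correlations was not tested.

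The genes with the pattern most like Runx1 over the 16 arrays, among those 995 probes, were the secretory protein Crisp3 with r = 0.71, the apoptosis regulator Pawr with 0.61, Rgn with 0.60, Pdpn with 0.60, Ggcx with 0.59 and Pdc with 0.58. The most opposed were Dlg4 with -0.64, Vom2r32 with -0.64, Stat5a with -0.61 and Mcm6 with -0.60. The middle part of the probes, from the lower to the upper quartile, lay between -0.12 and 0.21. None of these 10 genes passed as changed between groups, and their r without the 2 arrays farthest from the median, control rats 5 and 7, was 0.53 for Crisp3, 0.37 for Pawr and -0.54 for Dlg4. Runx1 was at the floor on control rats 1, 3 and 7. Pawr and Ggcx were at the floor on rats 3 and 7 of these, and Pdpn on rat 7. On control and on denervated arrays r was 0.83 and 0.24 for Crisp3, 0.56 and 0.76 for Pawr and 0.69 and 0.66 for Rgn. It was 0.60 and 0.62 for Pdpn, 0.60 and 0.71 for Ggcx and 0.62 and 0.45 for Pdc. It was -0.73 and -0.30 for Dlg4, -0.70 and -0.445 for Vom2r32, -0.75 and -0.15 for Stat5a and -0.67 and -0.47 for Mcm6. The part of the floor values was not tested. On the 8 denervated arrays the most alike were the phosphatase subunit Ppp1cb with 0.96, the secretoglobin Scgb2a1 with 0.96, Myog with 0.93 and the small GTPase Rab8b with 0.92, and the most opposed were Vom2r44 with -0.92 and the hormone Sct with -0.88. Over the control arrays r was 0.07 for Ppp1cb, -0.40 for Scgb2a1, -0.24 for Myog, 0.37 for Rab8b, -0.12 for Vom2r44 and 0.45 for Sct. All were picked for their r, so no test is given here, and the test of Myog above was run for it as a list gene. Scgb2a1 ran from 9.69 to 10.60 on the denervated arrays and from 3.27 to 9.45 on the control arrays, the groups not overlapping, and rose by 2.05 (limma adjusted p = 0.00588), or by 1.37 without control rat 6.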

How the data were processed

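Expression was measured on 16 nylon membrane arrays, each taken as 1 rat. Per the labels, phosphorimages were quantified with Array Vision and normalised by linear regression, and the values deposited by the authors are used here as a score, taken as logarithmic from its range; the base and any background correction: not given in the sources used here. Of 1185 probes, 9 reference probes on another scale were left out, leaving 1176, of which 1106 name 1 gene, 2 several and 68 none; 1099 gene IDs matched a RefSeq table (GRCr8, names only). For a gene with several probes the highest mean counted.

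The groups were tested by limma 3.58.1 (R 4.3.3; lmFit, eBayes with trend, two-sided, Benjamini-Hochberg over 1176 probes, threshold 0.05). Single values were tested by exact permutation, correlations by 100000 permutations within groups or all pairings. The fit was tested on simulated data. Members, lists and alternatives (scaling, floors, reference probes, blocks, single arrays left out) were chosen with earlier results of these data known. Named genes were Runx1, all measured denervation and partner genes, up to 6 called members of other lists, neighbours of Runx1 by t and the genes with the most extreme correlations at the floor on at most 4 arrays. The number of arrays limits the precision. Figures were drawn with matplotlib 3.10.9.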

Additional observations from a re-analysis of the deposited data

Results flagged for a closer look

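In 8 of 90 groups of 8 arrays, over 45 named genes, the highest or lowest value stood apart from the others by more than 0.526 of the group's range; about 1 in 20 such groups is passed in this way without any cause. No Runx1 group was among them. Control rat 6, the low array, was the lowest for Musk (6.39, next 7.81), Myh3 (3.27, next 5.18), Tnnt2 (3.27, next 5.66), Bgn (5.56, next 7.78) and Scgb2a1 (3.27, next 7.63). Among denervated arrays the lowest values standing apart were those of rat 1 for Musk (8.22), rat 3 for Scd (7.12) and rat 4 for Dlg4 (6.57).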

How the results depend on the processing

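The Runx1 difference kept its direction and its call under every alternative run, from 3.02 in rats 5 to 8 alone to 4.06 in rats 1 to 4 alone, and from 3.40 to 3.81 when 1 array was left out. The interaction of Runx1 with the sets of rats, run as deposited, centred, quantile normalised, with a common floor and with 1 array left out, passed in none of these; it was -1.62 after centring, and with 1 array left out it ran from -1.50 (control rat 7) to -0.55 (control rat 5). The count of 74 called probes was 131 with the sets of rats as a block, 30 in rats 1 to 4 alone and 139 in rats 5 to 8 alone; the cause was not tested. Leaving out 1 array gave 43 (denervated rat 1) to 98 (control rat 4), and among those between were 45 (control rat 7), 46 (denervated rat 6), 48 (control rat 8) and 49 (control rat 5). With rat number as a replicate block the Runx1 difference was 3.54 (limma adjusted p = 1.70e-15), 113 probes were called and 3 leukocyte markers passed. Deviations of same-numbered rats correlated from 0.06 to 0.19 over probes, which does not settle whether the numbers are pairs. The main fit did not take them as pairs.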
